A study of Mus musculus with 18 samples.

Results

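The 43 genes described here encode enzymes that break down amino acids, and they were followed in hepatocytes from the pericentral (PC) and the periportal (PP) side of the liver lobule of fed and fasted mice. They were taken from a list of gene symbols, and all 43 were matched to 1 identifier each among the 28030 genes of the count table. Of these, 42 were tested. Tdh, which encodes threonine dehydrogenase, was listed at 0 counts in each of the 18 libraries. Bckdhb, which encodes a subunit of the branched-chain ketoacid dehydrogenase, rounded to 0 counts in 6 libraries and reached 206.3 counts in another, so its level is uncertain and no fold change is given for it. A further 8 members share at least 50 exon bases with another protein-coding gene of the annotation (Sds, Gcat, Gstz1, Afmid, Aldh4a1, Shmt1, Bckdha and Pcca). Whether reads were counted by strand is not given in the sources used here, so counts are uncertain where the other gene lies on the opposite strand. Gcat, Afmid and Aldh4a1 share 1132, 1566 and 1595 bases with a gene entry on their own strand. Counting by strand would not separate these, so their counts are uncertain in either case.

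The mice were wild-type C57BL/6J males of 12 weeks kept on normal chow. They were trained over 3 days with a daily cycle of 16 h without food and 8 h with food, and on the last day they also had 20% sucrose in their water. Fed mice were killed at clock hour 13 after 4 h of feeding, mice fasted for 8 h at clock hour 21, and mice fasted for 24 h at clock hour 13 of the following day. Length of fast and hour of the day therefore cannot be told apart in any comparison with the 8 h groups. Each zone's cells were obtained by infusing the detergent digitonin from the opposite side of the lobule, where it permeabilises the cells it meets. Each of the 6 groups of zone and feeding state held 3 libraries. The labels do not say whether these came from separate mice, so p-values measure the spread between libraries, which may be technical. These are bulk libraries, in which fewer cells of a type and less RNA per cell cannot be told apart.

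The liver takes up most of the amino acids that arrive from the gut or, during a fast, from muscle. Its enzymes remove the amino group, which enters the urea cycle, and pass the carbon skeletons to glucose synthesis, ketone bodies or the tricarboxylic acid cycle. Periportal hepatocytes meet the incoming blood first and are known for glucose and urea synthesis, while pericentral hepatocytes are known for glutamine synthesis and drug metabolism. Glucagon and glucocorticoids, the hormones of fasting, are known to induce several of these genes, among them Tat, Sds and Tdo2.

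Total counts per library lay between 18359911 and 26384358. The 7 pericentral markers summed to between 9456 and 18580 CPM (counts scaled for library size, with no correction for gene length) in the PC libraries and to between 422 and 2050 in the PP libraries. The 5 periportal markers summed to between 2527 and 4438 CPM in PC and to between 6715 and 10085 in PP. With 5 markers each, sinusoidal endothelial, Kupffer and stellate cells summed to at most 28.5, 17.4 and 14.2 CPM in any library. Those of cholangiocytes, also 5, summed to between 19.3 and 56.7 CPM, with Epcam at 0 in each library.

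A pair of libraries, called below those that stood apart, differed from their groups in hepatocyte markers, and they were not the only ones. In PC at 24 h, replicate 2 had 10848 CPM of pericentral markers against 15681 and 18580 in the others, with Glul at 111 CPM against 928 and 707. In PP at 8 h, replicate 1 had 112202 CPM summed over 5 markers of all hepatocytes against 170127 and 154851, and 6715 CPM of periportal markers against 10085 and 9688. Where either library of this pair held the highest or lowest value of its group, the result is often also given without it. Other libraries differed from their groups in these markers or by other measures. In PP, fed replicate 2 had 1512 CPM of pericentral markers against 539 and 422. At 24 h, PP replicate 1 had 2050 CPM of them against 1179 and 565. PC replicate 1 at 24 h had 66297 CPM of the markers of all hepatocytes against 97915 and 86901. In PC at 8 h, replicate 1 had chi-square statistics per gene of 94.7 and 119 against the others, and these had 37.0 between them. In PC at 24 h, replicate 1 had 101 against replicate 2 and 68.5 against replicate 3. Replicates 2 and 3 had 49.6 between them and were the closest pair there by this measure. In PP at 8 h, replicate 3 had 28.5 CPM of sinusoidal endothelial markers against 3.63 and 6.09.

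Promoter sequence was available for 37 of the members in RefSeq (assembly GRCm38.p6), in 41 windows of 250 bases before a gene start. Letters of binding motifs for factors known to act in the fasted liver were searched on both strands. The cAMP response element TGACGTCA was in 0 of the 41 windows and in 1.55% of all 32851 windows of this length. Its shorter form TGACG, which the longer element contains, was in 12.2% of member windows and 17.8% of all windows, and the C/EBP motif TTGCNNAA in 12.2% and 9.56%. The full glucocorticoid response element, an inverted repeat, was in 0 member windows and 0.387% of all. The windows of Hal, Aass and Got1 are printed because the results below turn on these genes, with matches in capitals. The window of Hal lies at chr10:93488518-93488767 on the plus strand, Aass at chr6:23132987-23133236 on the minus strand and Got1 at chr19:43524606-43524855 on the minus strand.
Hal: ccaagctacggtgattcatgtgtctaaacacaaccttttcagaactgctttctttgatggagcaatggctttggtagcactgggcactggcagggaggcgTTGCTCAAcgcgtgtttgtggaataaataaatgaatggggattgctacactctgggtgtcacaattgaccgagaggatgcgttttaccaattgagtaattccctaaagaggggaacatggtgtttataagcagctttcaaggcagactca
Aass: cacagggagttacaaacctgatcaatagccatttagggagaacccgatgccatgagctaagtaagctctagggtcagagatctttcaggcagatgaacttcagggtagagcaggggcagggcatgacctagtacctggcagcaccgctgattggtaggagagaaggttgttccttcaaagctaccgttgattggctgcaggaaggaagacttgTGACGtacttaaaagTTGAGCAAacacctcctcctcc
Got1: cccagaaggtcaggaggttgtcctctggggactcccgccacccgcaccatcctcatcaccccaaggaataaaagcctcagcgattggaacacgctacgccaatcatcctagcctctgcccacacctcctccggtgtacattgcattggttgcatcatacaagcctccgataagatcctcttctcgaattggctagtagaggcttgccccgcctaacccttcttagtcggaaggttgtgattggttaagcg
Hal held 1 C/EBP match, 150 bases before its start. Aass held TGACG 37 bases before its start and a C/EBP match on the other strand at 22 bases. No capitals appear for Got1, since none of the 4 motifs was found in its window.

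Zone was the first question the design addressed. In the fed state 10 of the 42 members were called between zones by edgeR (adjusted p under 0.05), against 8.01% of all 12477 genes tested. Of these, 7 were higher in PP (3.89% of all genes) and 3 were lower (4.13%). After 8 h of fasting 10 were called (7.14% of all genes), 9 higher (3.72%) and 1 lower (3.42%), and after 24 h 8 were called (4.17%), 7 higher (1.7%) and 1 lower (2.47%). With the 3 states averaged, 20 of the 42 members were called, against 20.3% of all genes, with 13 higher (10.3%) and 7 lower (9.96%). The shares of members called were 23.8%, 23.8% and 19.0% in the 3 states and 47.6% with the states averaged. The median log2 difference of the members was 0.05, 0.11 and -0.01 in the 3 states. The same 7 genes were higher in PP in all 3 states: Hal, Uroc1, Amdhd1 and Ftcd of histidine breakdown, the serine dehydratases Sds and Sdsl, and Gldc of glycine cleavage. Aldh4a1 of proline breakdown was lower in PP in all 3.

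After fasting, more of the called members were higher than lower. After 8 h, 10 members were called in PC (13.8% of all genes), 7 higher (7.27%) and 3 lower (6.57%), and 9 in PP (14.4%), 6 higher (7.56%) and 3 lower (6.85%). After 24 h, 11 were called in PC (21.8%), 10 higher (10.8%) and 1 lower (11.1%), and 9 in PP (19.6%), 5 higher (9.59%) and 4 lower (10%). The shares of members called were 23.8% and 21.4% at 8 h and 26.2% and 21.4% at 24 h, near the shares of all genes at 24 h. Between 8 h and 24 h, 9 were called in PC (9.71%), 7 higher (5.2%) and 2 lower (4.51%), and 5 in PP (7.46%), 2 higher (3.22%) and 3 lower (4.24%). These counts moved when single libraries were left out. The PC count at 8 h was 6 without fed replicate 2 or 3, and the PP count at 8 h was 4 without fed replicate 1 and 5 without 8 h replicate 2. The PP count at 24 h was 4 without fed replicate 1 or 2 or 24 h replicate 3, and 5 without 24 h replicate 2. From 8 h to 24 h the PC count was 4 without 8 h replicate 2 and 5 without 8 h replicate 1 or 3 or 24 h replicate 2 or 3, and the PP count was 2 without 8 h replicate 2 or 3 or 24 h replicate 2, and 1 without 24 h replicate 1 or 3. The 8 h and 24 h comparisons with the fed state share their fed libraries, so their values stand side by side and are not independent. Over the 9 comparisons between a pair of groups, 26 members were called at least once and 16 were not. The share of all genes called at least once was not computed, so this count has no background beside it. The heat map shows the calls by member.

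**Figure D1:**
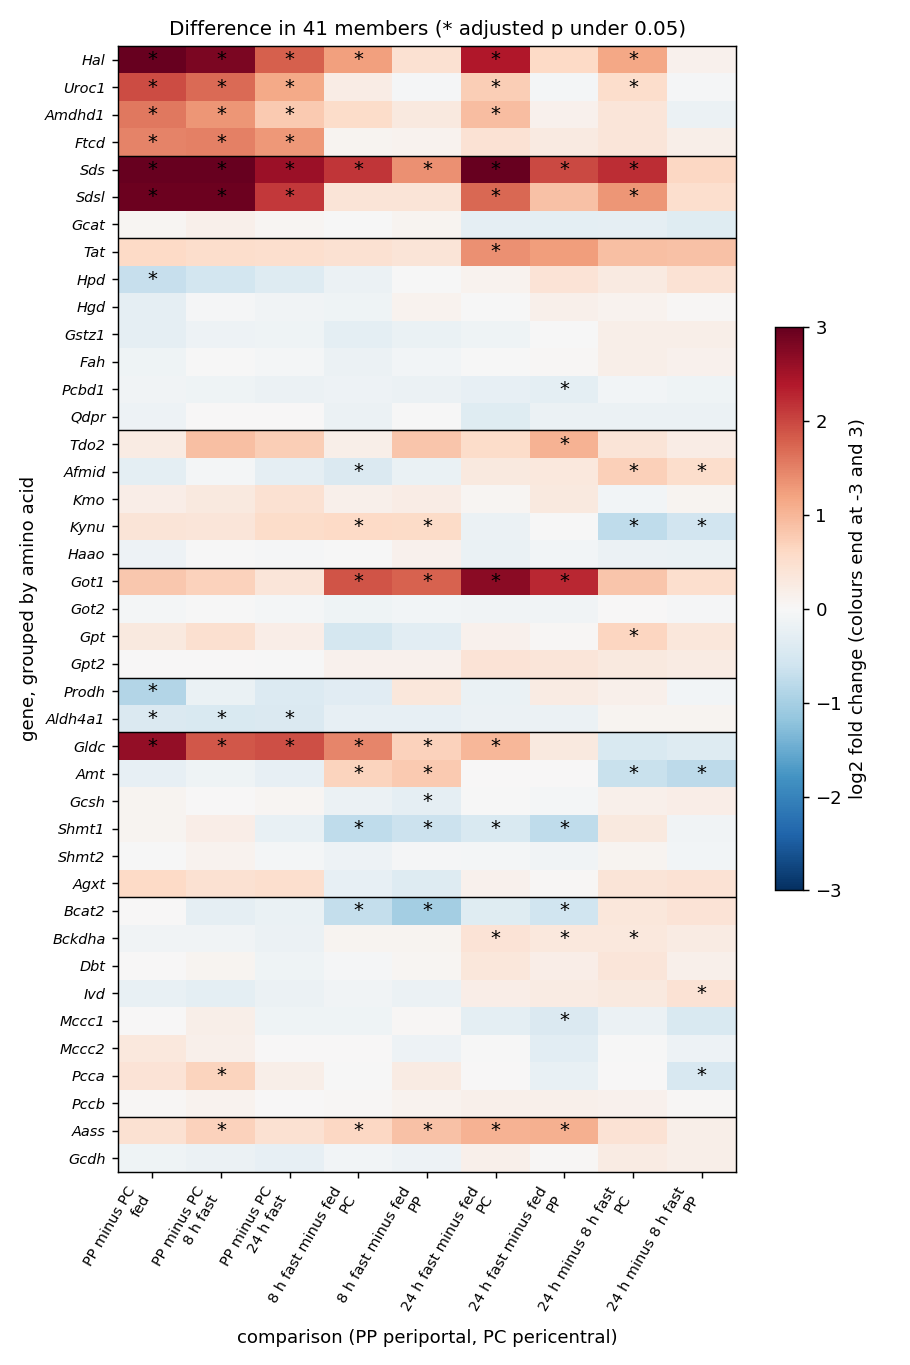
Log2 fold change (colour, ending at -3 and 3) of 41 members (rows, grouped by pathway) in the 9 comparisons between a pair of groups (columns), with a star where edgeR's adjusted p was under 0.05. Tdh and Bckdhb are left out. The 4 histidine genes and Sds, Sdsl and Gldc carry red and a star in all 3 columns of zone difference, and Got1, Aass and Sds in all 4 columns of fasting against fed.

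All 4 genes of histidine breakdown among the members were periportal. Hal encodes histidine ammonia-lyase, which removes the amino group as the first step, and Uroc1 and Amdhd1 encode urocanase and imidazolonepropionase, the enzymes that follow. Ftcd encodes the enzyme that passes the last carbon to folate. Each was higher in PP in each of the 3 states.

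The level of Hal (ENSMUSG00000020017, chr10:93488768-93519304) was 46.8, 57.7 and 67.1 CPM in fed PC and 706, 552 and 812 CPM in fed PP. After 8 h it was 157, 116 and 133 CPM in PC and 799, 1024 and 1033 in PP, and after 24 h 243, 466 and 196 in PC and 1054, 1076 and 993 in PP. The zones did not overlap in any state. The log2 difference, PP minus PC, was 3.59 ± 0.28 (SE, adjusted p = 1.71e-06) in the fed state. It was 2.81 ± 0.27 (1.81e-05) after 8 h and 1.79 ± 0.26 (0.000751) after 24 h. Within PC, Hal rose by 1.24 ± 0.25 on the log2 scale after 8 h (adjusted p = 0.00363) and by 2.40 ± 0.26 after 24 h (1.88e-05), a 5.27-fold rise. Within PP the 24 h change was 0.59 ± 0.25 with an adjusted p of 0.111. From 8 h to 24 h it rose in PC by 1.16 ± 0.25 (0.00995), and this call was lost without 8 h replicate 2 (1.04, adjusted p = 0.0513). Without 24 h replicate 2 it was 0.68 (0.0446), and the zone difference at 24 h was 2.24 (1.7e-05). Replicate 2 of PC at 24 h held the highest value of its group. Without it the PC change over fed at 24 h was 1.93 (adjusted p = 1.38e-05) and the PP change, 0.59, was called (0.024).

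Uroc1 was at 195, 169 and 220 CPM in fed PC and at 701, 751 and 795 in fed PP, a log2 difference of 1.95 ± 0.14 (adjusted p = 8.13e-07). At 24 h it was at 286, 406 and 284 in PC and at 760, 659 and 726 in PP, a difference of 1.14 ± 0.14 (0.000241), or of 1.32 without PC replicate 2 (4.47e-05). The PC libraries rose by 0.74 ± 0.14 between fed and 24 h (0.00125), or by 0.55 without replicate 2 (0.00787), and the PP values stayed between 659 and 795 CPM in all 3 states. Its rise from 8 h to 24 h in PC, 0.52 ± 0.14 (0.0257), was lost without that replicate (0.32, adjusted p = 0.159) and without 8 h replicate 2 or 3.

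Amdhd1 lies next to Hal on chromosome 10 (chr10:93523338-93540033). It was at 73.4, 62.2 and 71 CPM in fed PC and at 199, 199 and 223 CPM in fed PP, with no overlap. The zone differences were 1.59 ± 0.21, 1.33 ± 0.20 and 0.78 ± 0.20 in fed, 8 h and 24 h mice, and the last, with an adjusted p of 0.0401, lost its call when any 1 of 13 libraries was left out (adjusted p up to 0.163) and in the fit with the replicate number as a block (0.78, adjusted p = 0.0525). Without PC 24 h replicate 2 it was 1.03 (0.00599). In PC it rose by 0.93 ± 0.20 after 24 h (0.00382) and by 0.67 without replicate 2 (0.024). Ftcd lay between 103 and 264 CPM in the PC libraries and between 369 and 523 in the PP libraries. Its zone difference was 1.48 ± 0.19, 1.51 ± 0.19 and 1.31 ± 0.19, and it was called in 0 of the 6 fasting comparisons.

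The periportal markers were higher in the PC libraries at 24 h, but not at 8 h. Their sum was between 2831 and 3653 CPM in fed PC, 2527 and 3523 at 8 h, and 4149 and 4438 at 24 h. Of the 5 markers, Gls2 was at 95.0, 93.8 and 125 CPM in fed PC and at 180, 320 and 194 at 24 h. Between the same groups the mean of Cyp2f2 went from 180 to 487 CPM and that of Hsd17b13 from 88.4 to 277. Those of Ass1 and Aldh1b1 went from 2839 to 3342 and from 1.71 to 2.87 CPM, with overlapping libraries. The part of this marker shift in the 24 h rise of Hal, Uroc1 and Amdhd1, and of Sds, Sdsl and Gldc below, was not tested.

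**Figure D2:**
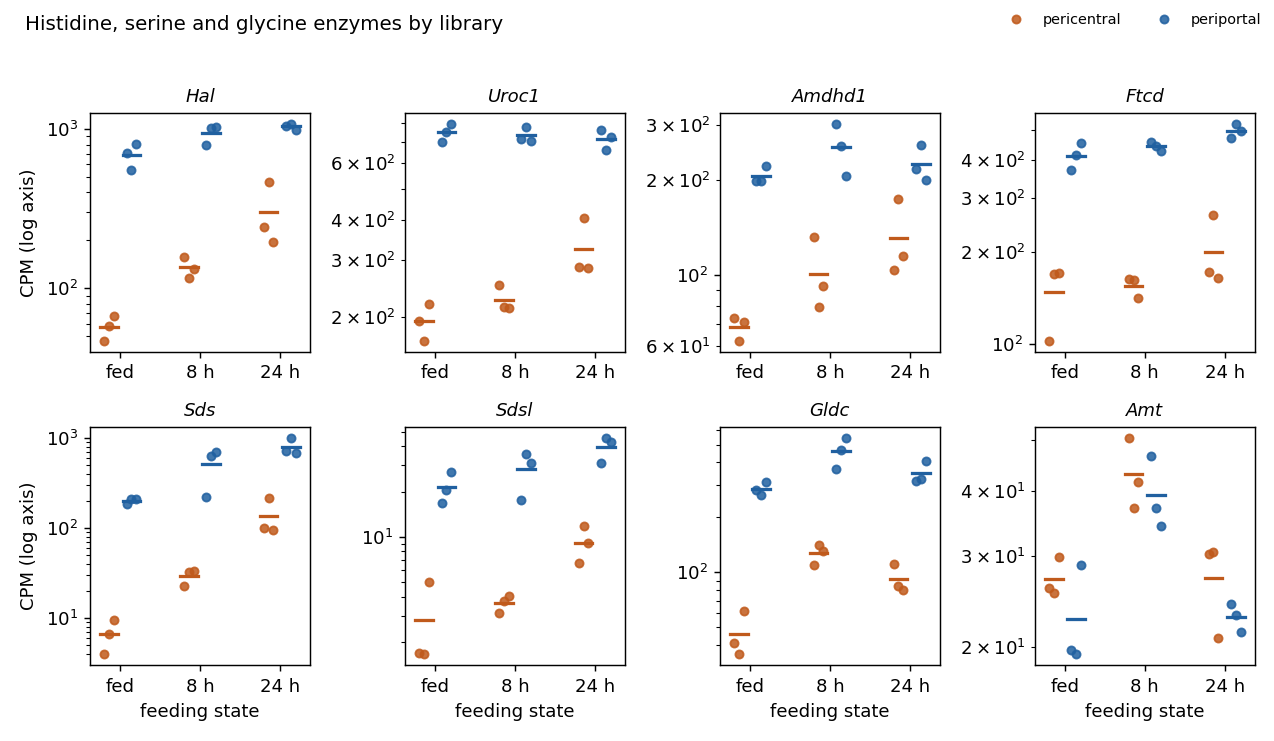
CPM (log axis) of genes of histidine, serine and glycine breakdown in each library, by feeding state, with PC in orange, PP in blue and a line at each group mean. Fed PC libraries hold 46.8 to 67.1 CPM of Hal and 3.98 to 9.50 CPM of Sds against 552 to 812 and 187 to 211 CPM in fed PP, and for both genes the zones approach each other after 24 h. Amt, also shown, had no zone difference called.

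Serine and threonine feed glucose synthesis through serine dehydratase. Sds (chr5:120476526-120483932), which encodes that enzyme and turns serine into pyruvate, had the largest zone difference of the members other than Bckdhb. It was at 3.98, 6.69 and 9.50 CPM in fed PC and at 187, 211 and 210 CPM in fed PP, a 30.2-fold difference (log2 4.91 ± 0.49, adjusted p = 2.59e-05). After 8 h it was at 22.8, 32.7 and 33.6 CPM in PC and at 222, 629 and 710 in PP. After 24 h it was at 101, 215 and 94.8 CPM in PC and at 713, 1010 and 689 in PP. The zone difference was thus 4.13 ± 0.46 at 8 h (0.00011) and 2.55 ± 0.43 at 24 h (0.0035). It was 4.49 at 8 h without PP replicate 1 (1.66e-05) and 3.03 at 24 h without PC replicate 2 (0.00169).

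The rise of Sds with fasting was called in both zones and at both times. In PC it was 2.14 ± 0.44 at 8 h (adjusted p = 0.00483) and 4.35 ± 0.48 at 24 h (3.3e-05), a 20.4-fold rise. In PP it was 1.36 ± 0.41 at 8 h (0.0407) and 1.99 ± 0.42 at 24 h (0.00456). Replicate 1 of PP at 8 h, with 222 CPM, lay just above the fed PP range and far below the other 8 h libraries, and without it the 8 h rise in PP was 1.73 (0.00525). Without replicate 2 of PC at 24 h, the highest of its group, the 24 h rise in PC was 3.86 (7.77e-05). The 8 h rise in PP lost its call when any 1 of 8 other libraries was left out, among them each fed PP library (adjusted p up to 0.145).

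Sdsl (chr5:120458186-120472810) lies beside Sds on the other strand and encodes a related serine dehydratase. It was at 1.69, 1.65 and 5.02 CPM in fed PC and at 16.7, 20.6 and 27.1 in fed PP. The zone difference was 2.95 ± 0.39 in fed mice (adjusted p = 0.000257), 2.95 ± 0.39 at 8 h (0.000331) and 2.12 ± 0.36 at 24 h (0.0035). At 8 h Sdsl was at 3.11, 3.77 and 4.02 CPM in PC and at 17.6, 35.4 and 31.1 in PP. It reached 6.68, 11.7 and 9.05 CPM in PC at 24 h, a rise of 1.72 ± 0.39 (0.00615), or of 1.49 without replicate 2 (0.0294), and from 8 h to 24 h it rose by 1.33 ± 0.39 (0.0428), a call lost when any 1 of 9 libraries was left out (adjusted p up to 0.152). Its PP values at 24 h, 31.0, 45.6 and 42.6 CPM, lay above the fed range with a change of 0.89 ± 0.34 that missed the threshold (0.0858). Gcat, which encodes the enzyme that splits the product of threonine dehydrogenase, stayed between 49.3 and 81.4 CPM over all libraries and was not called.

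Glycine is cleaved in mitochondria by a complex of 4 proteins, and 3 of its genes were members. They behaved differently from each other. Gldc, which encodes the decarboxylase that binds glycine, was at 41, 35.5 and 61.2 CPM in fed PC and at 282, 267 and 311 CPM in fed PP, a log2 difference of 2.64 ± 0.20 (adjusted p = 1.23e-06). At 8 h it was at 110, 141 and 131 CPM in PC and at 370, 466 and 546 in PP, a rise over fed of 1.47 ± 0.20 in PC (0.000108) and of 0.68 ± 0.19 in PP (0.0231). At 24 h it was at 111, 84.6 and 80.5 CPM in PC and at 316, 326 and 406 in PP, and the PC change over fed was called, 1.0 ± 0.19 (0.00151), while that in PP, 0.29 ± 0.19, was not (0.329). The 8 h call in PP was lost without PP fed replicate 1 or 2 or PP 8 h replicate 2 or 3 (adjusted p up to 0.102).

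Amt, the aminomethyltransferase of the complex, showed a rise at 8 h that was gone at 24 h. In PC it was at 26, 25.4 and 29.9 CPM in fed mice, 50.6, 37.1 and 41.5 at 8 h and 30.2, 30.4 and 20.9 at 24 h. In PP it was at 19.8, 19.4 and 28.8 CPM in fed mice, 46.6, 37.0 and 34.2 at 8 h and 24.3, 23.0 and 21.4 at 24 h. The 8 h values lay above both other states in each zone. The rise at 8 h was 0.67 ± 0.17 in PC (adjusted p = 0.0158) and 0.79 ± 0.18 in PP (0.00608), and from 8 h to 24 h Amt fell by 0.66 in PC (0.0245) and by 0.78 in PP (0.0137). The PC calls were lost without 8 h replicate 1, and that of the rise also without fed replicate 1 or 2 (adjusted p up to 0.0738) and that of the fall without 24 h replicate 3 (up to 0.113). The fall in PP was lost without 24 h replicate 2 or 3 (up to 0.0575). No zone difference of Amt was called. Gcsh, the lipoyl carrier of the complex, was at 64.1, 71.2 and 66.2 CPM in fed PC, 56.7, 60.6 and 60.5 at 8 h and 60.8, 71.9 and 66.4 at 24 h. In PP it was at 73.9, 73.8 and 66.7, then 61.5, 61.4 and 56.0, then 70.8, 65.3 and 70.1, with the 8 h libraries below the fed ones. It fell by 0.26 in PP at 8 h (0.0424), a call that was lost when any 1 of 9 libraries was left out, among them each PP library at 8 h (adjusted p up to 0.151).

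Shmt1 encodes the cytosolic enzyme that exchanges serine and glycine, and it was lower in every fasted group. In PC it was at 237, 244 and 271 CPM in fed mice, 123, 164 and 160 at 8 h and 167, 204 and 176 at 24 h. In PP it was at 238, 280 and 276 CPM in fed mice, 160, 187 and 163 at 8 h and 161, 162 and 149 at 24 h. No fasted library reached the fed range. Shmt1 fell by 0.75 in PC (adjusted p = 0.000422) and by 0.64 in PP (0.00184) at 8 h, and by 0.46 in PC (0.0107) and 0.75 in PP (0.000388) at 24 h, each with an SE of 0.12. Its mitochondrial counterpart Shmt2 stayed between 114 and 144 CPM and was not called. Agxt, which encodes the peroxisomal enzyme that turns glyoxylate into glycine, was at 53.2, 103 and 101 CPM in fed PC and at 114, 138 and 135 in fed PP. At 8 h it was at 90.9, 68.5 and 56.7 CPM in PC and 99.9, 102 and 94.9 in PP, and at 24 h at 88.0, 112 and 83.8 in PC and 117, 130 and 152 in PP. It was called higher in PP only with the states averaged (0.51 ± 0.12, 0.00718).

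Tyrosine breakdown begins with tyrosine aminotransferase, the product of Tat. Its level was 1308, 1321 and 1581 CPM in fed PC and 1781, 2431 and 2209 in fed PP. After 8 h it was 2199, 1978 and 1645 in PC and 964, 4445 and 3010 in PP. At 24 h it was 5147, 1640 and 4080 in PC and 4161, 5077 and 6188 in PP. Both libraries that stood apart held the lowest Tat of their group and widened its spread.

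Tat rose at 24 h by 1.37 ± 0.44 in PC (adjusted p = 0.0381), and its change in PP, 1.26 ± 0.44, missed the threshold (0.0574). Without replicate 2 of PC at 24 h the values were 1.71 in PC (0.0103) and 1.26 in PP (0.0295). Without both apart libraries they were 1.71 (7.09e-05) and 1.26 (0.000348), and the 8 h change in PP, 0.81, was called as well (0.0187), while that in PC, 0.48, was not (0.11). The PC call at 24 h was lost when any 1 of 8 other libraries was left out, among them each fed PC library (adjusted p up to 0.146), and with limma-voom.

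Hpd encodes the dioxygenase that follows Tat. It was at 2264, 2260 and 2485 CPM in fed PC and at 1197, 1532 and 1589 in fed PP, lower in PP by 0.70 ± 0.18 (adjusted p = 0.0251), a call lost without any 1 of the fed PC libraries or PP fed replicate 1 (adjusted p up to 0.123). After 8 h Hpd was at 1775, 2615 and 1825 CPM in PC and 1071, 1765 and 1429 in PP, and after 24 h at 2708, 2165 and 2679 in PC and 2009, 1981 and 1750 in PP. With the states averaged it was lower in PP by 0.55 ± 0.11 (0.00128). Gstz1, the isomerase further down, lay between 261 and 425 CPM and was lower in PP with the states averaged by 0.18 ± 0.06 (0.0394), a call that was lost when any 1 of 10 libraries was left out (adjusted p up to 0.0849). Hgd stayed between 331 and 532 CPM, Fah between 347 and 454, and Qdpr, which recycles the cofactor tetrahydrobiopterin, between 231 and 353, and none was called in the 9 comparisons. Pcbd1, which encodes another enzyme of that cofactor cycle, fell by 0.30 in PP at 24 h (0.043), from 145, 156 and 155 CPM through 136, 143 and 124 at 8 h to 118, 138 and 113, a call that was lost without any 1 of the fed PP libraries or 24 h replicate 1 or 3 (adjusted p up to 0.17). In PC Pcbd1 was at 148, 171 and 172 CPM in the fed state, 137, 148 and 156 after 8 h and 127, 151 and 138 after 24 h.

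Tryptophan breakdown begins with Tdo2, tryptophan dioxygenase. It was at 987, 1557 and 1053 CPM in fed PC and at 1480, 1216 and 1599 in fed PP, with overlapping zones. At 8 h it was at 1053, 1426 and 1580 in PC and at 1225, 2792 and 3581 in PP, and at 24 h at 1884, 1706 and 1707 in PC and at 2532, 3159 and 3132 in PP. At 24 h the zones no longer overlapped, but the zone difference, 0.74 ± 0.29, was not called (0.191). With the states averaged Tdo2 was higher in PP by 0.63 ± 0.16 (0.0118). The rise from fed to 24 h was called in PP, 1.04 ± 0.29 (adjusted p = 0.0185), and was lost without PP fed replicate 1 or 2 or 24 h replicate 2 or 3 (adjusted p up to 0.0741). Replicate 1 of PP at 8 h lay far below the others, and without it the 8 h rise in PP was 1.16 (0.00156) and the zone difference at 8 h was 1.23 (0.00119), in place of 0.82 (0.0662) and 0.90 (0.0693).

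The later enzymes of the pathway moved in different directions. Kynu, kynureninase, had a rise at 8 h that was gone at 24 h. In PC it was at 154, 140 and 130 CPM in fed mice, 209, 253 and 178 at 8 h and 134, 109 and 135 at 24 h, and in PP at 152, 214 and 190, then 233, 333 and 261, then 152, 198 and 203. The rise was 0.59 ± 0.17 in PC (adjusted p = 0.0252) and 0.57 ± 0.17 in PP (0.0288), and Kynu then fell by 0.76 in PC (0.00997) and by 0.58 in PP (0.0447). The rise in PC lost its call without PC fed replicate 2 or 3 or PC 8 h replicate 1 or 2 (adjusted p up to 0.125), and that in PP without PP fed replicate 1 or 3 or PP 8 h replicate 2 (up to 0.147). The fall in PP was lost when any 1 of 10 libraries was left out (up to 0.193).

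Afmid, which encodes the formamidase that follows Tdo2, took the opposite course. It was at 147, 157 and 161 CPM in fed PC, 102, 124 and 119 at 8 h and 198, 189 and 181 at 24 h. In PP it was at 114, 121 and 146, then 95.8, 115 and 121, then 176, 143 and 157. It fell by 0.43 in PC at 8 h (adjusted p = 0.0186), and from 8 h to 24 h it rose by 0.72 ± 0.12 in PC (0.00126) and by 0.52 ± 0.12 in PP (0.013). The fall in PC was lost without PC fed replicate 2 or 3 or 8 h replicate 1 (adjusted p up to 0.0911), and the rise in PP without 24 h replicate 1 (0.44, adjusted p = 0.0516). Kmo, the monooxygenase of the pathway, lay between 192 and 351 CPM. Kmo and Kynu were higher in PP with the states averaged, by 0.31 ± 0.08 (0.0114) and 0.44 ± 0.10 (0.00372). Haao stayed between 248 and 325 CPM and was not called.

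**Figure D3:**
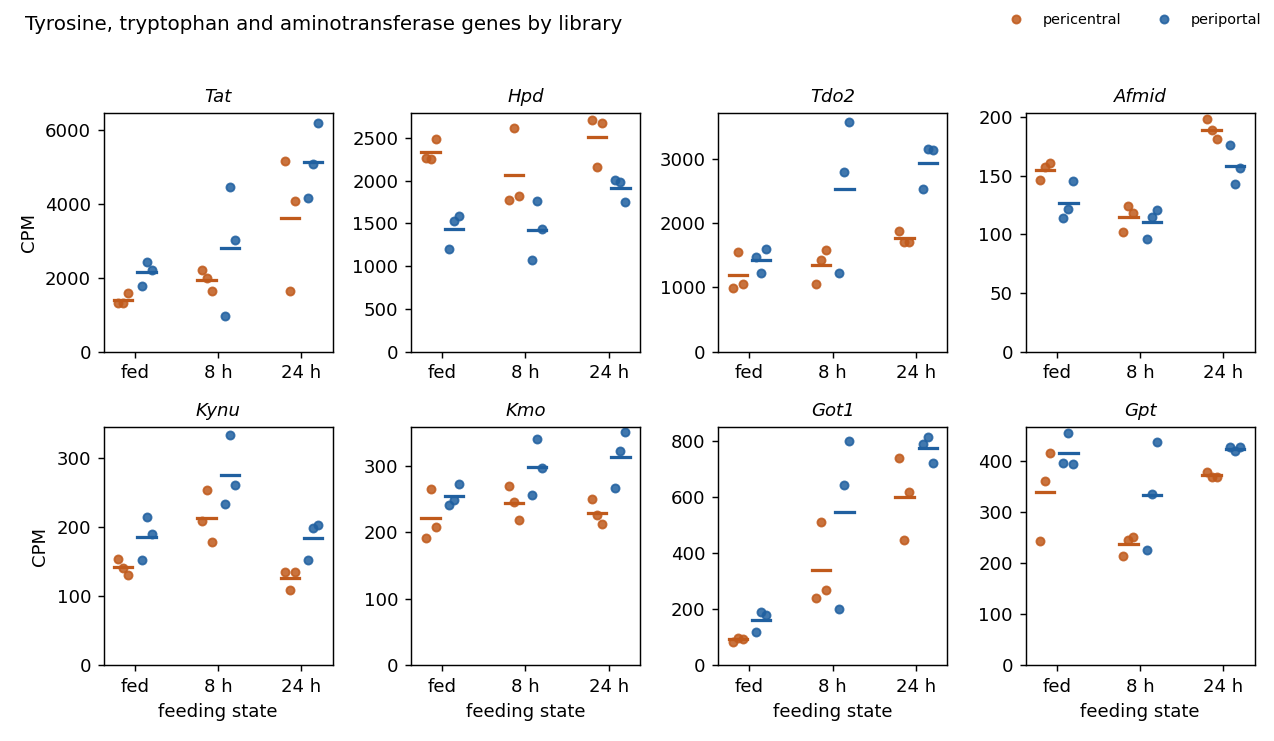
CPM of 8 genes of tyrosine and tryptophan breakdown and of aminotransferases in each library, by feeding state, with PC in orange, PP in blue and a line at each group mean. Got1 rises in both zones from 84.3 to 188 CPM in fed libraries to 446 to 813 CPM at 24 h, Kynu peaks and Afmid dips at 8 h, and for Tat the pair of libraries that stood apart are the single low points at 8 h in PP and at 24 h in PC.

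The aminotransferases move amino groups between aspartate or alanine and glutamate. Got1 (chr19:43499752-43524605), the cytosolic aspartate aminotransferase, had the largest rise of the members in PP at 24 h. It was at 84.3, 98.6 and 94.1 CPM in fed PC and at 117, 188 and 179 in fed PP. After 8 h it was at 239, 512 and 268 in PC and at 199, 642 and 800 in PP, and at 24 h at 737, 446 and 616 in PC and at 789, 813 and 720 in PP. All fasted libraries exceeded all fed libraries of their zone. The 8 h rise was 1.88 ± 0.41 in PC (adjusted p = 0.00658) and 1.76 ± 0.41 in PP (0.0099), and the 24 h rise was 2.70 ± 0.42 in PC (0.000462) and 2.26 ± 0.41 in PP (0.00165), which is 6.50-fold and 4.80-fold. Without replicate 1 of PP at 8 h the 8 h rise in PP was 2.17 (0.000245). Without PP fed replicate 1 it lost its call narrowly (1.58, adjusted p = 0.0512).

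The mitochondrial form Got2 stayed between 487 and 612 CPM and was not called, so the cytosolic and the mitochondrial gene differed in their calls, a difference that was not itself tested. Gpt, the cytosolic alanine aminotransferase, was at 243, 361 and 416 CPM in fed PC and at 396, 455 and 395 in fed PP. The 8 h values were 215, 245 and 252 in PC and 226, 336 and 439 in PP, and at 24 h at 379, 370 and 370 in PC and at 427, 420 and 428 in PP. From 8 h to 24 h it rose in PC by 0.65 ± 0.20 (adjusted p = 0.0443), a call lost when any 1 of 14 libraries was left out (adjusted p up to 0.159). Without replicate 1 of PP at 8 h it was called higher in PP at 8 h (0.70, adjusted p = 0.0155). Gpt2, the mitochondrial form, lay between 333 and 687 CPM, with a change at 24 h of 0.40 ± 0.18 in PC (0.136) and 0.37 ± 0.18 in PP (0.186).

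Both members of proline breakdown were lower in PP in fed mice. Prodh, proline dehydrogenase, was at 123, 166 and 171 CPM in fed PC and at 87.7, 102 and 60.6 in fed PP. At 8 h it was at 95.7, 136 and 131 in PC and at 63.9, 122 and 129 in PP, with overlap, and at 24 h at 155, 100 and 144 in PC and at 104, 98.8 and 96 in PP. It was lower in fed PP by 0.88 ± 0.25 (adjusted p = 0.0447), a call that was lost when any 1 of 10 libraries was left out (adjusted p up to 0.171).

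Aldh4a1 encodes the dehydrogenase of the second step and showed a small, steady zone difference. It was at 407, 500 and 410 CPM in fed PC against 307, 340 and 328 in fed PP, at 369, 389 and 359 against 267, 276 and 277 at 8 h, and at 418, 366 and 389 against 311, 269 and 285 at 24 h. The zones did not overlap in any state. It was lower in PP by 0.43 (adjusted p = 0.0114), 0.45 (0.0106) and 0.44 (0.0177), each with an SE of 0.10. The call in fed mice was lost without PC fed replicate 2 or PP fed replicate 1 (adjusted p up to 0.0728), and that at 24 h without PC 24 h replicate 1 or 3 or PP 24 h replicate 2 or 3 (up to 0.093). Oat, which joins ornithine to this pathway and was used here as a pericentral marker, is not counted among the members.

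The plot of zone differences sets these genes side by side. In the histidine and serine genes the difference between zones was numerically smaller at 24 h than in fed mice. The part in this of the higher periportal markers in PC at 24 h was not tested. Whether the fasting change itself differed between zones was tested as the PP change minus the PC change. By edgeR's quasi-likelihood test, 0 members were called for fed to 8 h, against 0% of all genes, and 0 for fed to 24 h, against 0.016%. At an unadjusted p under 0.05 there were 2 of the 42 members for 8 h, against 680 of all 12477 genes. For 24 h there were 5 of the 42, against 962 of all 12477 genes: Hal, Sds, Uroc1, Amdhd1 and Gldc. For Hal the difference in the 24 h change was -1.80 ± 0.36 (adjusted p = 0.288), for Sds -2.36 ± 0.59 (0.345) and for Uroc1 -0.81 ± 0.20 (0.345). By the Wald test of DESeq2, 3 members were called at 24 h, Hal at -1.79 (adjusted p = 0.00071), Sds at -2.35 (0.0303) and Uroc1 at -0.80 (0.0276), and by limma-voom 0. The share of all genes that DESeq2 called is not given here, so its 3 calls have no background beside them. Without replicate 2 of PC at 24 h the edgeR values were -1.35 for Hal (adjusted p = 0.238) and -1.88 for Sds (0.719). Whether the change at 24 h was called different between the zones thus depended on the test.

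**Figure D4:**
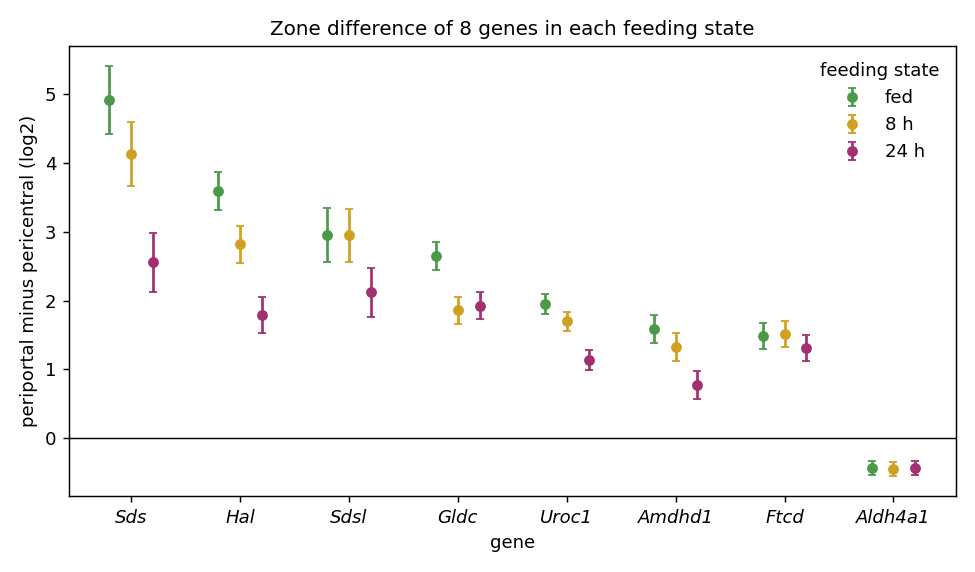
Log2 difference, PP minus PC, of the 8 members called between zones in all 3 feeding states, with bars of 1 SE, from the edgeR fit of 18 libraries. Sds falls from 4.91 in fed mice to 2.55 at 24 h and Hal from 3.59 to 1.79, while Ftcd stays between 1.31 and 1.51 and Aldh4a1 between -0.45 and -0.43.

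Lysine breakdown enters through Aass, which encodes the first 2 enzyme activities of the pathway on 1 protein. It was at 188, 230 and 214 CPM in fed PC and at 259, 269 and 334 in fed PP. After 8 h it was at 271, 387 and 320 in PC and at 327, 617 and 641 in PP, and at 24 h at 476, 396 and 441 in PC and at 544, 598 and 653 in PP. Each PC value at 8 h and 24 h exceeded the fed PC range. The rise was 0.63 ± 0.20 in PC (adjusted p = 0.0468) and 0.88 ± 0.20 in PP (0.00786; 1.14 without replicate 1 of PP at 8 h, 0.000189) at 8 h, and 1.05 ± 0.20 in PC (0.0015) and 1.06 ± 0.20 in PP (0.00163) at 24 h. At 8 h the zone difference was 0.69 ± 0.20 (0.0469), which became 0.94 without replicate 1 of PP at 8 h (0.000979) and lost its call when any 1 of 16 other libraries was left out (adjusted p up to 0.207). The 8 h rise in PC was lost without any 1 of 12 libraries (up to 0.181). Gcdh, the dehydrogenase near the end of the pathway, lay between 418 and 593 CPM and was lower in PP by 0.19 ± 0.06 with the states averaged (0.0426) and lost that call when any 1 of 12 libraries was left out (up to 0.092).

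The branched-chain amino acids leucine, isoleucine and valine are first transaminated by Bcat2, which liver is known to hold at a low level, and then oxidised by the ketoacid dehydrogenase. Bcat2 was at 6.98, 6.89 and 8.99 CPM in fed PC and at 7.26, 7.47 and 8.49 in fed PP. At 8 h it was at 4.79, 4.70 and 4.41 in PC and at 4.81, 3.20 and 3.49 in PP, below every fed library. At 24 h it was at 5.51, 6.54 and 5.63 in PC and at 6.71, 4.78 and 4.00 in PP. It fell at 8 h by 0.72 in PC (adjusted p = 0.0175) and by 1.01 in PP (0.00216), and at 24 h by 0.59 in PP (0.0387), while the PC change at 24 h was -0.37 ± 0.19 (0.179). The 8 h call in PC was lost without PC fed replicate 3 or 8 h replicate 2 or 3 (adjusted p up to 0.0879), and the 24 h call in PP without any 1 of the fed PP libraries or 24 h replicate 2 or 3 (up to 0.169).

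Bckdha, the catalytic subunit of the dehydrogenase, rose slightly at 24 h in both zones. It was at 150, 183 and 186 CPM in fed PC and 228, 226 and 234 at 24 h, a rise of 0.41 ± 0.09 (adjusted p = 0.00402). It was at 162, 161 and 163 CPM in fed PP and 200, 204 and 204 at 24 h, a rise of 0.32 ± 0.09 (0.0188). The groups did not overlap in either zone. The PP call was lost without PP fed replicate 1 or 2 or 24 h replicate 2 or 3 (adjusted p up to 0.0584). Dbt, the core subunit, lay between 75.3 and 122 CPM and was not called.

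Of the carboxylases and dehydrogenases that follow, Pcca, a subunit of propionyl-CoA carboxylase, was higher in PP at 8 h. In the fed state it was at 78.1, 80.4 and 69.2 CPM in PC and 101, 108 and 94.9 in PP. At 8 h it was at 63.7, 88.0 and 76.0 CPM in PC and at 95.1, 142 and 127 in PP, a difference of 0.68 ± 0.13 (adjusted p = 0.00398), and it fell in PP from 8 h to 24 h by 0.49 (0.0344) to 89.8, 82.3 and 87.3 CPM, a call lost without PP 8 h replicate 2 or 3 or any 1 of the PP libraries at 24 h (up to 0.154). In PC at 24 h it was at 71.3, 76.8 and 80.4 CPM. Its partner Pccb stayed between 185 and 241 CPM and was not called. Ivd of leucine breakdown rose in PP from 8 h to 24 h by 0.44 ± 0.11 (0.0239), from 125, 128 and 128 CPM to 188, 151 and 177, a call lost without any 1 of the PP libraries at 8 h or PP 24 h replicate 1 or 3 (up to 0.0835). Fed PP libraries held 140, 140 and 153 CPM of Ivd, and PC held 143, 187 and 173 in the fed state, 156, 154 and 160 at 8 h and 216, 186 and 176 at 24 h. With the states averaged Ivd was lower in PP by 0.23 ± 0.06 (0.0159). Mccc1 fell in PP at 24 h by 0.44 (0.0397), from 53.1, 57.1 and 58.3 CPM to 42.8, 39.4 and 42.3, a call lost without any 1 of the 6 libraries compared (adjusted p up to 0.119), and was at 49.5, 63.7 and 58.6 CPM in PP at 8 h. In PC Mccc1 was at 53.4, 66.8 and 46.3 CPM in the fed state, 40.8, 60.6 and 51.0 at 8 h and 48.8, 43.4 and 43.8 at 24 h. Mccc2, the other subunit of this carboxylase, lay between 32.5 and 51.7 CPM and was not called.

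**Figure D5:**
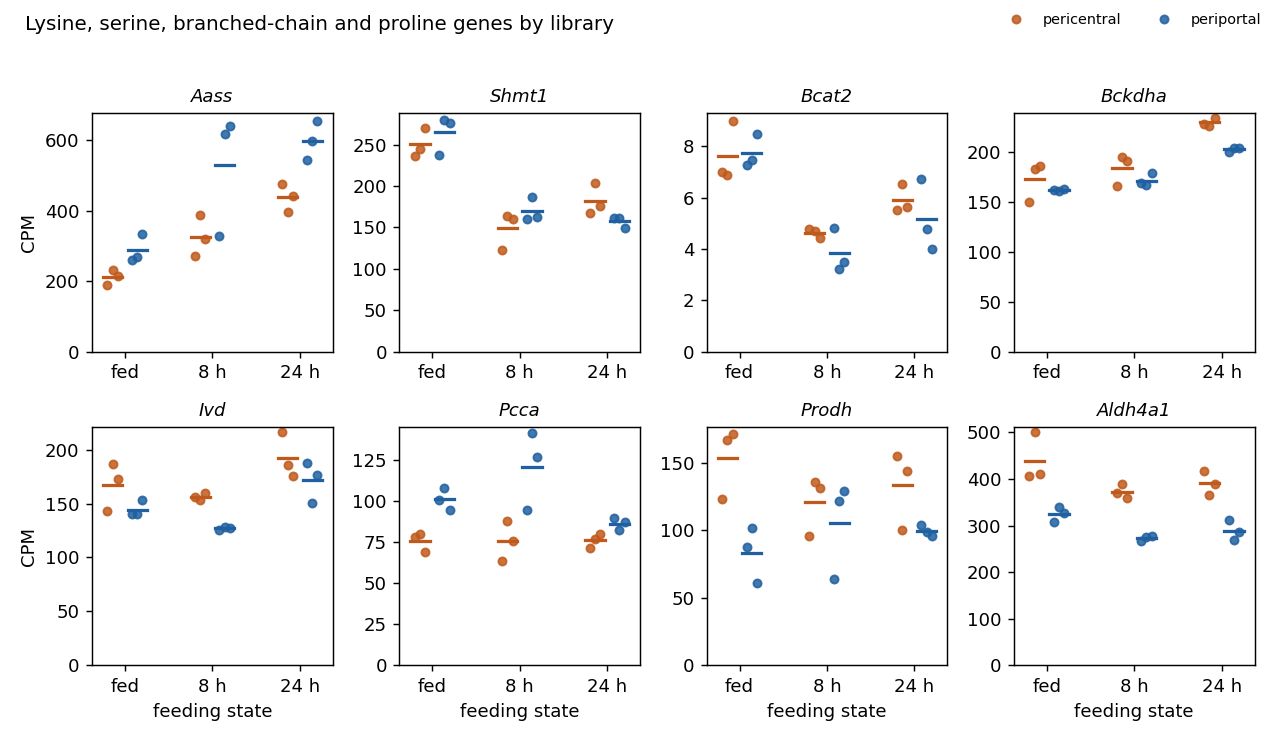
CPM of 8 genes of lysine, serine, branched-chain and proline breakdown in each library, by feeding state, with PC in orange, PP in blue and a line at each group mean. Aass is higher and Shmt1 lower in both zones after fasting, Bcat2 is lowest at 8 h, and all Aldh4a1 values of PP, 267 to 340 CPM, lie below those of PC, 359 to 500 CPM.

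The remaining steps of these pathways were followed in a list of 47 further genes, 46 of which were tested (Dao was near 0). Whether their calls held under the alternatives or without single libraries was not examined, unlike those of the members. Between zones, 9 of the 46 were called in fed mice (3 higher and 6 lower in PP), 4 at 8 h (3 and 1) and 4 at 24 h (2 and 2), which is 19.6%, 8.70% and 8.70% against 8.01%, 7.14% and 4.17% of all genes. With fasting, 6 were called in PC at 8 h (2 higher and 4 lower), 7 in PP at 8 h (5 and 2), 13 in PC at 24 h (10 and 3) and 9 in PP at 24 h (6 and 3). These are 13.0%, 15.2%, 28.3% and 19.6%, against 13.8%, 14.4%, 21.8% and 19.6% of all genes, so 3 of the 4 shares lay near the background. Between 8 h and 24 h, 9 were called in PC (7 higher and 2 lower) and 3 in PP (1 and 2), or 19.6% and 6.52% against 9.71% and 7.46% of all genes.

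Etnppl, a phospholyase of phosphoethanolamine from the same enzyme class, had a zone difference of the size of Hal. It was at 57.7, 44.0 and 44.0 CPM in fed PC and at 713, 609 and 678 in fed PP (3.78, adjusted p = 2.55e-05), and in PC it rose at 24 h by 2.62 (0.000156) to 232, 383 and 280 CPM. The highest of these was replicate 2, which stood apart, and no value without it is given for Etnppl. The part in this rise of the higher periportal markers in PC at 24 h was not tested. Aspg, an asparaginase, was higher in PP in fed mice by 1.58 and at 8 h by 1.26. On the other side, Csad, which leads cysteine to taurine, was lower in fed PP by 2.70 (0.0266), with 653, 380 and 564 CPM in PC against 49.7, 124 and 72.7 in PP. Agxt2 was lower in PP in all 3 states, by 0.65, 0.46 and 0.65, and Hsd17b10 of isoleucine breakdown was lower in fed PP by 0.94.

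With fasting, Hykk, the hydroxylysine kinase, and Ppm1k, the phosphatase that activates the branched-chain ketoacid dehydrogenase, rose in all 4 comparisons with the fed state. Hykk was at 24.4, 30.4 and 28.2 CPM in fed PC and at 21.3, 24.6 and 41.3 in fed PP, and rose at 8 h by 1.34 in PC and 1.52 in PP and at 24 h by 1.44 and 1.49. Ppm1k was at 18.2, 36.0 and 21.2 CPM in fed PC and at 15.1, 15.7 and 30.6 in fed PP, and rose at 8 h by 1.84 and 1.35 and at 24 h by 1.76 and 1.79. Cdo1, cysteine dioxygenase, was lower in fed PP by 0.92 and rose in PP at 8 h by 1.15 and at 24 h by 1.19, against 0.67 in PC at 24 h. Ddo, D-aspartate oxidase, fell at 24 h by 0.99 in PC and by 0.97 in PP.

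Further genes of this list were called in single comparisons or a few. Ethe1, the mitochondrial enzyme that oxidises sulfide from cysteine, rose in PP at 8 h by 0.94 and then fell by 1.37 in PP and by 0.69 in PC. It was higher in PP at 8 h by 0.70. Dhtkd1 of lysine breakdown rose in PC at 24 h by 0.90, and Etfdh, which passes electrons from acyl-CoA dehydrogenases to the respiratory chain, by 0.69 in PC and 0.44 in PP. Auh of leucine breakdown rose in PC at 24 h by 0.37. Asrgl1 rose in PP by 0.74 at 8 h and 0.63 at 24 h, and Srr fell in PP by 0.36 and 0.37. Hoga1 fell at 8 h by 0.35 in PC and 0.43 in PP and rose in PC from 8 h to 24 h by 0.70. Qprt, which leads tryptophan carbon to NAD, was higher in PP by 0.41 in fed mice and 0.46 at 24 h, and Hibadh of valine breakdown was lower by 0.43 and 0.53. Phykpl fell in PC at 8 h by 0.52. From 8 h to 24 h Ido2 fell in PP by 0.89, and Echs1 and Pipox rose in PC by 0.38 and 0.30.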

How the data were processed

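RNA was sequenced from 18 bulk libraries in 6 groups of zone and feeding state, 3 each. Gene-level estimated counts, unnormalised and not always whole, were deposited in 1 table. The tool and genome build named are kallisto 0.46.0 and mm10, per the submitters' processing notes. The labels name RNeasy with TRIzol and the NEBNext Ultra kit. Total counts were 18359911 to 26384358 per library. With 3 libraries a group, this number limits the precision.

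The estimated counts were rounded to whole numbers and tested with the quasi-likelihood test of edgeR 4.0.16 in R 4.3.3 (TMM, filterByExpr, robust). All 18 libraries entered 1 fit, and 12477 genes were tested. Benjamini-Hochberg adjustment of p-values covered every tested gene, and a gene was called under 0.05. The SE was the log2 fold change divided by the square root of F. CPM used the TMM factors, whose range was 0.83 to 1.1. The method was also run on simulated data, but the outcome is not given here, so that run lends the calls no support.

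The members and gene lists were chosen with earlier results of these data known. Every member was described. By rule, values in every library were printed for the entry enzymes and for up to 4 called members with the largest change in each direction of each comparison. Other members were given by range, and some of them in full after their values were seen. Further pathway genes were named where called, except a few that are not reported here. Gene positions are from GENCODE M21. Replicates did not repeat a library, since their chi-square statistic per gene was 35.1 to 119. Alternatives were other scalings and filters, DESeq2 1.42.0, limma 3.58.1, a fit of the compared groups alone, a replicate block, and leaving out each library in turn. Leaving out both libraries that stood apart was chosen after seeing the data. The labels number the replicates alike in all groups without saying what a number shares. The deviations of same-numbered libraries correlated over 0.1 in all 3 pairs between PC and PP at 24 h (r from 0.12 to 0.17). No other pair of groups had all 3 over 0.1. The numbers may thus pair the PC and PP libraries at 24 h, and the blocked value stands beside the call it changed there.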

Additional observations from a re-analysis of the deposited data

How the results depend on the processing

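Of 101 calls of a member in a comparison, 62 were kept under every alternative and 0 reversed. Other scalings moved the median of all genes by at most 0.02 on the log2 scale. Leaving out 1 library at a time, members called between zones numbered 7 to 11 in fed mice, 9 to 13 at 8 h, 6 to 9 at 24 h and 17 to 21 with states averaged. Against fed, the range was 6 to 11 in PC and 4 to 10 in PP at 8 h, and 10 to 14 in PC and 4 to 11 in PP at 24 h. From 8 h to 24 h it was 4 to 9 in PC and 1 to 6 in PP, and for both zone differences 0. With only the compared groups in the fit, 4 members were called in PP at 8 h, and 5 in PC and 1 in PP from 8 h to 24 h. Without both libraries that stood apart, 3 were called in PP from 8 h to 24 h, and 12 in each zone at 8 h. The cause was not tested. DESeq2 called 3 members for the zone difference from fed to 24 h, in place of 0, and its share of all genes is not given here.

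Over 45 same-numbered pairs of libraries r was -0.12 to 0.21 with a median of 0.03. It was over 0.1 in 7 of these and in 3 of 90 differently numbered pairs. What a shared number stands for is not given in the labels. With the number as a replicate block, the zone counts were 10, 10, 7 and 21, the 8 h counts 11 and 9, the 24 h counts 11 and 10, and the counts from 8 h to 24 h 9 and 5, with 0 for both zone differences. The block ended the calls of Amdhd1 between zones at 24 h (0.0525), Prodh between zones in fed mice (0.0572) and Tat in PC at 24 h (0.0532) by edgeR's adjusted p, and added Gpt between zones with states averaged (0.0287). The 0 counts of Tdh allow up to 3 counts in a library.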

Other observations

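In the PC libraries at 24 h, replicate 2 held at once the highest Hal, Sds, Uroc1, Amdhd1 and Ftcd of its group and the lowest Glul, Oat and Slc1a2. Oat was at 257 CPM against 1055 and 1158, and Slc1a2 at 8.82 CPM against 241 and 256. In the PP libraries at 8 h, replicate 1 held the lowest Tat, Tdo2, Got1, Aass and Sds of its group, and the lowest Alb, at 93000 CPM against 146784 and 133271. Bckdhb was at 10.2 CPM in PC at 24 h replicate 3 and at 5.16 CPM in PC at 8 h replicate 1, and at or under 2.91 CPM in the other 16 libraries.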
